A study of Homo sapiens with 38 samples.

Results

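NTS, PTPRZ1, ERBB4, EDNRB, NEFM and NEFL are 6 genes best known from the nervous system, and they are described here among the 57133 genes counted in naive human embryonic stem cells as they capacitate, which is to say leave naive pluripotency and become able to form lineages. NTS, PTPRZ1, ERBB4, EDNRB and NEFM were chosen by measured values, namely a large rise from naive cells to day 8 or a difference between media at day 8, and NEFL was added to them. Day 8 values of the first 5 genes are therefore given as a description without a test, as is the step of ERBB4 from day 4 to day 6 in N2B27. Differences of ERBB4 from N2B27 at day 6 rest on the same N2B27 libraries and are also a description. Otherwise, earlier days, media at earlier days, added supplements and NEFL were tested. All 6 genes passed the filter on low counts, which kept 16674 genes.

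All 38 libraries came from Shef6, a human embryonic stem cell line, so that a single line stands for naive cells here. Naive cells (day 0) were kept in PXGL, which is N2B27 basal medium with LIF and with compounds that block PKC, MEK and tankyrase, on serum coating (2 libraries of experiment Ex1) or on Geltrex, a basement membrane matrix (2 libraries of Ex1 and 2 of Ex2). Capacitation was started from cells of serum coating and ran on Geltrex. In Ex1 it ran in N2B27 or in E8 for 2, 3, 4, 6 or 8 days, or in mTeSR for 4, 6 or 8 days, where E8 and mTeSR are commercial media that supply FGF and TGF-beta. In Ex2 it ran for 4 days in N2B27, in N2B27 plus XAV939, a tankyrase inhibitor (XAV), or in N2B27 plus Activin A, FGF2 and XAV939 (FAX). Each group held 2 libraries made in parallel, and p-values measure the spread between such libraries, which may be technical.

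Transcripts were counted by sequencing a tag near their 3′ end. Total counts ranged from 3038046 to 5612354 per library with a median of 4427277, and levels are given as CPM, the count relative to the library total after TMM scaling. A count of 3, taken as the floor of detection, was worth 0.518 to 1.06 CPM across libraries, and floors and counting intervals cover counting error only. The names of the 2 naive libraries of Ex2 carry a day 4 tag, while their other labels give day 0, and PTPRZ1 and EDNRB had 0 counts in both. Compared with naive cells of Ex1 on Geltrex, none of the 6 genes was called in these libraries by the edgeR quasi-likelihood test (0 at an unadjusted p under 0.05 and 0 with DESeq2, background 4.67% of genes).

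Neurotensin, the product of NTS, is a secreted peptide that acts as a transmitter and gut hormone. PTPRZ1, ERBB4 and EDNRB are cell surface receptors. PTPRZ1 is a receptor tyrosine phosphatase of neural progenitors and glia that binds pleiotrophin and midkine, ERBB4 is a receptor tyrosine kinase for neuregulins, and EDNRB is the endothelin B receptor, which neural crest cells need to form enteric neurons and pigment cells. NEFM and NEFL encode the medium and light subunits of neurofilaments, the intermediate filaments of axons. Naive pluripotent cells resemble the epiblast of the blastocyst, and during capacitation they lose naive factors and take on features of the epiblast after implantation.

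The regions before the transcription start of NTS, PTPRZ1, ERBB4 and EDNRB are shown because these 4 genes, at or near 0 in naive cells, differed in when and in which medium they rose. They come from RefSeq on GRCh38.p14 and are printed 5′ to 3′ on the gene's strand, each as the longest stretch of the 250 bases before a RefSeq start that lies outside every exon GENCODE annotates. The EDNRB stretch lies inside the gene's annotated span, since GENCODE has starts further upstream. Capitals mark matches on either strand to 6 motifs searched in the 250 bases before each start.
NTS (chr12:85874045-85874294, plus strand): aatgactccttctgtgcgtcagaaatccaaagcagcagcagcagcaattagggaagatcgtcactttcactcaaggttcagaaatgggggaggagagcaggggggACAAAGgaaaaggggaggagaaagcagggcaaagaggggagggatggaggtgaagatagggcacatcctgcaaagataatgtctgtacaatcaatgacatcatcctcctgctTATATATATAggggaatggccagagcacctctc
PTPRZ1 (chr7:121872911-121873088, plus strand): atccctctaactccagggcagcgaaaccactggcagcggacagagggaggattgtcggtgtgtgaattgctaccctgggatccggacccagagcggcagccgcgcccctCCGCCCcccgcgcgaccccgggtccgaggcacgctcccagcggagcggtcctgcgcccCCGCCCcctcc
ERBB4 (chr2:212538842-212539052, minus strand): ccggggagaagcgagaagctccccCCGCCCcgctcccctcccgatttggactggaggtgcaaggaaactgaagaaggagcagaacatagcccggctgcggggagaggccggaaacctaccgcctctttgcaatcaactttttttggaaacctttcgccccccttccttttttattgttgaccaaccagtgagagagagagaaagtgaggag
EDNRB (chr13:77918832-77919006, minus strand, the downstream of its 2 RefSeq starts): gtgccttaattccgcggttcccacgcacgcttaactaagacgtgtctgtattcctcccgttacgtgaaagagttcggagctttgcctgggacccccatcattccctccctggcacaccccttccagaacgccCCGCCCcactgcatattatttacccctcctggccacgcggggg
The NTS region alone held the TATA-like motif TATATA, in overlapping copies from 33 bases before the start, and it held a match to the SOX core ACAAAG 145 bases before the start. Over the 35116 promoters of the same length, TATATA occurred in 3.73% and ACAAAG in 13.7%. The GC box GGGCGG, found in 42.6% of promoters, occurred in PTPRZ1 at 141 and 83 bases before the start, in ERBB4 at 226 bases and in this EDNRB region at 43 bases. The 250 bases before the NTS start held 2 CpG dinucleotides and those of PTPRZ1 held 29, where the median promoter held 11. Letters of the AP-1 motif TGANTCA (6.57% of promoters), the CRE TGACGTCA (1.65%) and the TCF/LEF motif ATCAAAG (2.26%) were not found in these 4 windows. A match is a description of letters and not a binding site.

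NTS gained most of its level after day 4 and rose most in N2B27. In the 6 naive libraries its level ranged from 0 to 0.681 CPM with a median of 0. In N2B27 the libraries held 1.40 and 1.42 CPM at day 2, 2.21 and 3.39 at day 3, 10.4 and 9.64 at day 4, 97.6 and 95.7 at day 6, and 200.1 and 181 at day 8. In E8 they held 2.11 and 1.31 CPM at day 2, 0.716 and 1.03 at day 3, 3.54 and 2.75 at day 4, 27.7 and 28.8 at day 6, and 61.0 and 47.1 at day 8. The N2B27 libraries lay above those of E8 from day 3 on, and levels in E8 at day 3 were at about the floor. In mTeSR the levels were 1.41 and 1.15 CPM at day 4, 18.3 and 23.8 at day 6, and 61.4 and 47.1 at day 8, so that the libraries of E8 and mTeSR overlapped at day 8 and those of N2B27 did not overlap them. In bulk libraries, more cells that express a gene and more RNA per cell cannot be told apart.

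From day 4 to day 6 NTS rose in each medium. By the edgeR quasi-likelihood test its log2 fold change was 3.27 ± 0.18 (SE, adjusted p = 1.36e-13) for N2B27, 3.16 ± 0.25 (adjusted p = 3.89e-10) for E8 and 4.02 ± 0.31 (adjusted p = 3.10e-10) for mTeSR, and these steps were called under every alternative. The step from day 3 to day 4 was called as well, with 1.80 in N2B27 (adjusted p = 0.000339) and 1.80 in E8 (adjusted p = 0.0379). The call in E8 rested on 8 counts at day 3 in all and was lost with DESeq2 (adjusted p = 0.0737), without a filter (0.0641), when only the compared libraries were fitted (0.54) and when any of its 4 libraries was left out (0.0591 to 0.287), while that in N2B27 was lost when only the compared libraries were fitted (0.125). Against naive cells, which held 3 NTS counts in all, the ratio at day 8 was 1626 in N2B27 (counting interval 556 to 7892), 470.3 in E8 (160.1 to 2288) and 466 in mTeSR (158 to 2270), given as a description.

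PTPRZ1 was high by day 2 and was not called between media before day 8. A single read was found in 1 of the 6 naive libraries (0.221 CPM) and none in the other 5. In N2B27 the libraries held 28.7 and 24.4 CPM at day 2, 63.0 and 69.3 at day 3, 83.6 and 75.9 at day 4, 96.5 and 93.5 at day 6, and 79.6 and 80.8 at day 8. In E8 the levels were 37.0 and 21.9 CPM at day 2, 80.7 and 68.1 at day 3, 93.4 and 100.02 at day 4, 99.6 and 105 at day 6, and 112 and 139 at day 8. Every library at day 2 was already far above naive cells, and no step from day 3 to day 6 was called. In mTeSR it was 90.0 and 91.3 CPM at day 4, 123 and 101 at day 6, and 128 and 138 at day 8.

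The rise of PTPRZ1 from day 2 to day 3 was called in N2B27 (1.31 ± 0.17, adjusted p = 6.62e-06) and in E8 (1.34 ± 0.18, adjusted p = 6.40e-06), and both calls held under every alternative. No later step before day 8 was called, with log2 fold changes of 0.08 to 0.38. PTPRZ1 was not called between media at days 2 to 6 in any of 8 comparisons, and the intervals of the differences lay within -0.38 and 0.57 on the log2 scale. At day 8 the level was 1.56 times that of N2B27 in E8 and 1.66 times in mTeSR, as a description. The ratio of day 8 to naive cells, which held 1 count in all, was 2064 in N2B27 (counting interval 369 to 81634), 3185 in E8 and 3414 in mTeSR, and its upper bounds carry little information.

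ERBB4 was the last of the 6 genes to leave the floor, and it stayed low in E8. Naive libraries ranged from 0 to 0.671 CPM with a median of 0.138. In N2B27 the libraries held 0.399 and 2.13 CPM at day 2, 0.981 and 0.399 at day 3, 1.04 and 0.357 at day 4, 26.8 and 21.3 at day 6, and 119.6 and 86.5 at day 8. In mTeSR they held 0 and 0.230 CPM at day 4, 3.75 and 5.58 at day 6, and 52.2 and 65.5 at day 8. E8 stayed at or under 3 counts per library through day 6 (0.722 and 0.454 CPM) and reached 3.54 and 3.28 CPM at day 8. The libraries of the 3 media did not overlap at day 6 or at day 8, and their order was N2B27, mTeSR and E8 on both days.

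In mTeSR the rise of ERBB4 from day 4 to day 6 was called (log2 fold change 5.03 ± 0.84, adjusted p = 0.000141), with a ratio of 40.3 from 43 counts against 1 (counting interval 6.86 to 1629). In N2B27 the same step, given as a description, had a ratio of 34.1 from 235 counts against 8 (17.0 to 80.0). In E8 it was not called (0.20, 95% interval -1.69 to 2.08, adjusted p = 0.94). The day 6 differences of ERBB4 from N2B27 use the N2B27 libraries of that known step and are a description as well. At day 6 the log2 difference of E8 from N2B27 was -5.30 ± 0.47, where the ratio of N2B27 to E8 was 41.1 from 235 counts against 5 (17.4 to 128). That of mTeSR from N2B27 was -2.35 ± 0.32. Tested at day 6, ERBB4 was higher in mTeSR than in E8 (2.94 ± 0.61, adjusted p = 0.00408). That call was lost without replicate 2 of E8 (adjusted p = 0.109) or replicate 2 of mTeSR (0.0927). At day 8 the mean level in N2B27 was 30.2 times that in E8 and 1.75 times that in mTeSR, as a description.

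EDNRB was present from day 2 on and was highest in E8. It had no count in any of the 6 naive libraries. In E8 the libraries held 2.11 and 4.25 CPM at day 2, 8.11 and 10.9 at day 3, 12.5 and 20.6 at day 4, 34.6 and 35.2 at day 6, and 73.3 and 64.7 at day 8. In N2B27 they held 1.99 and 2.84 CPM at day 2, 4.41 and 3.79 at day 3, 6.74 and 8.21 at day 4, 11.4 and 6.22 at day 6, and 13.4 and 10.97 at day 8. From day 3 on, both libraries of E8 lay above both of N2B27. In mTeSR the levels were 7.03 and 6.89 CPM at day 4, 11.7 and 13.7 at day 6, and 30.8 and 33.2 at day 8, above N2B27 at days 6 and 8 and below E8 throughout. The difference between mTeSR and N2B27 was not called at day 4 or at day 6, where the nearest libraries held 11.7 and 11.4 CPM.

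EDNRB was higher in E8 than in N2B27 at day 3 (1.22 ± 0.31, adjusted p = 0.0169), at day 4 (1.15 ± 0.25, adjusted p = 0.00369) and at day 6 (1.99 ± 0.24, adjusted p = 8.60e-07). It was lower in mTeSR than in E8 at day 4 (-1.25 ± 0.27, adjusted p = 0.0364) and at day 6 (-1.45 ± 0.23, adjusted p = 0.000192). Within E8 it rose from day 2 to day 3 (1.56 ± 0.36, adjusted p = 0.00275) and from day 4 to day 6 (1.07 ± 0.22, adjusted p = 0.00207). The day 6 differences from N2B27 and from mTeSR were called under every alternative, while the earlier ones and both steps were lost in at least 1 leave-out of a library, among them day 4 against N2B27 without replicate 2 of E8 (0.74, adjusted p = 0.162) and the last step without replicate 1 of E8 at day 4 (0.76, adjusted p = 0.119). At day 8 EDNRB was at least 16.7-fold higher (N2B27), 94.7-fold higher (E8) and 43.9-fold higher (mTeSR) than naive levels, taking the floor of 3 counts in each naive library, as a description.

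NEFM and NEFL rose gradually in E8 and mTeSR, and at day 8 both were highest in mTeSR. In N2B27 the only called step of NEFM before day 8 was from day 2 to day 3, and NEFL was lower at day 8 than at day 6. NEFM ranged from 0.276 to 0.895 CPM in naive libraries with a median of 0.795. In N2B27 its libraries held 0.399 and 0.473 CPM at day 2, 3.92 and 2.00 at day 3, 1.73 and 2.86 at day 4, 3.94 and 3.81 at day 6, and 5.05 and 3.96 at day 8. In E8 they held 3.52 and 1.31 CPM at day 2, 2.86 and 4.94 at day 3, 7.28 and 8.84 at day 4, 14.0 and 15.4 at day 6, and 22.2 and 15.7 at day 8. In mTeSR they held 7.50 and 11.48 CPM at day 4, 18.95 and 22.3 at day 6, and 30.3 and 41.8 at day 8. From day 4 on the N2B27 libraries lay below those of E8 and mTeSR without overlap.

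NEFM was higher in E8 than in N2B27 at day 4 (1.81 ± 0.34, adjusted p = 0.0008) and at day 6 (1.91 ± 0.30, adjusted p = 3.51e-05), and above N2B27 in mTeSR at day 4 (2.04 ± 0.34, adjusted p = 0.000276) and at day 6 (2.40 ± 0.29, adjusted p = 2.18e-06). These 4 calls held under every alternative, none of which used the N2B27 libraries of Ex2, where NEFM was higher at day 4 (5.97 and 4.98 CPM) than in those of Ex1. At day 2 NEFM was higher in E8 as well (2.39 ± 0.68, adjusted p = 0.018), with a ratio of 5.49 from 14 counts against 4 (counting interval 1.72 to 22.9), and the call was lost without replicate 1 of either group (adjusted p = 0.129 without that of N2B27 and 0.352 without that of E8). In N2B27 NEFM rose from day 2 to day 3 (2.66 ± 0.61, adjusted p = 0.00445), a ratio of 6.61 from 26 counts against 4 (2.29 to 26.1), which was lost without replicate 1 of day 3 (adjusted p = 0.0824). In mTeSR it rose from day 4 to day 6 (1.12 ± 0.26, adjusted p = 0.00534), which was lost without replicate 1 of day 4 (0.155) or replicate 2 of day 6 (0.0823). No difference between mTeSR and E8 was called at day 4 (0.23, 95% interval -0.33 to 0.79) or at day 6 (0.49, 0.00446 to 0.97).

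NEFL was above the floor in every naive library. On serum coating the naive libraries held 1.10 and 2.39 CPM, on Geltrex 4.92 and 7.01 CPM in Ex1 and 8.85 and 6.62 CPM in Ex2, so that libraries on serum coating lay below all of those on Geltrex. The difference between coatings in Ex1 was 1.77 ± 0.41 on the log2 scale with an adjusted p of 0.0547 in the edgeR quasi-likelihood test, and it was called with DESeq2 (adjusted p = 0.0152), without a filter (0.00322) and without replicate 2 of serum coating (2.43, adjusted p = 0.0271). In N2B27 the libraries held 5.38 and 6.15 CPM at day 2, 5.40 and 11.4 at day 3, 17.4 and 13.2 at day 4, 27.2 and 27.7 at day 6, and 20.6 and 23.4 at day 8. In E8 they held 3.52 and 7.19 CPM at day 2, 14.3 and 12.3 at day 3, 19.1 and 22.6 at day 4, 29.1 and 32.4 at day 6, and 41.2 and 39.2 at day 8. In mTeSR they held 24.9 and 25.5 CPM at day 4, 53.6 and 56.5 at day 6, and 58.7 and 85.3 at day 8. At day 2 neither medium was above naive cells on Geltrex, and at day 8 all libraries were.

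At day 8 NEFL was higher than in the 6 naive libraries. The log2 fold change was 2.14 ± 0.30 for N2B27 (adjusted p = 2.79e-07), 3.01 ± 0.28 for E8 (adjusted p = 4.33e-11) and 3.85 ± 0.27 for mTeSR (adjusted p = 4.69e-14) by the edgeR quasi-likelihood test. Against naive libraries on Geltrex alone, a setting chosen after seeing the data, the log2 fold changes were 1.71 in N2B27, 2.58 in E8 and 3.41 in mTeSR, all still called. Between media, NEFL in mTeSR exceeded N2B27 at day 6 (1.00 ± 0.20, adjusted p = 0.00138) and at day 8 (1.70 ± 0.21, adjusted p = 7.77e-07). The day 6 value sat at the fold threshold of 1 and fell under it with plain library totals (0.98) and without replicate 1 of N2B27 (0.99) or replicate 2 of mTeSR (0.96). E8 lay between them at day 8, 0.87 ± 0.21 above N2B27 and 0.84 ± 0.19 below mTeSR, both under the fold threshold, and the latter was called without replicate 1 of mTeSR (1.08, adjusted p = 0.00180). NEFL rose from day 2 to day 3 in E8 (1.29 ± 0.32, adjusted p = 0.00464), a call lost without replicate 1 of E8 at day 2 (0.88, adjusted p = 0.111), and from day 4 to day 6 in mTeSR (1.13 ± 0.21, adjusted p = 0.000393).

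**Figure D1:**
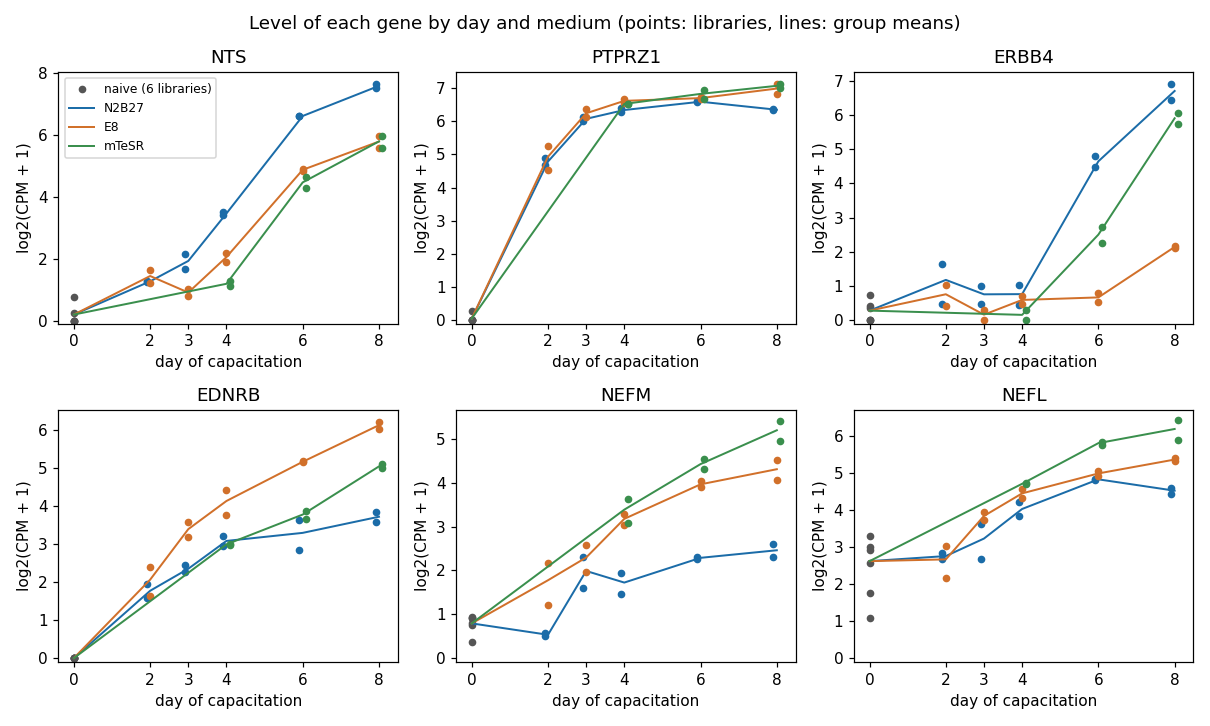
Levels of the 6 genes as log2(CPM + 1) on the vertical axis against the day of capacitation, with 1 point per library (6 naive libraries at day 0, 2 libraries elsewhere, all of Ex1 except the naive libraries of Ex2) and lines through group means for N2B27, E8 and mTeSR. PTPRZ1 reached 82.5% of its day 8 mean by day 3 in N2B27 and 59.3% in E8, ERBB4 stayed low until day 4 in all media, and the order of media differed between genes.

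The onset of a gene was taken as the first sampled day from which both libraries held more than 3 counts and more than the highest naive library, also on all later days. In N2B27 the onset was day 2 for NTS, PTPRZ1 and EDNRB, day 3 for NEFM, day 4 for NEFL and day 6 for ERBB4. In E8 it was day 2 for PTPRZ1, EDNRB and NEFM, day 3 for NEFL, day 4 for NTS and day 8 for ERBB4. ERBB4 was thus the last gene in both media. In mTeSR, sampled from day 4, the onset was day 6 for ERBB4 and day 4 for the other 5 genes. With a floor of 1 count NTS in E8 began at day 2, and with a floor of 5 counts NTS in mTeSR began at day 6 and NEFM in E8 at day 3.

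The share of the day 8 level reached on earlier days separated the genes further. By day 4 in N2B27 the mean level was 99.4% of that at day 8 for PTPRZ1, 69.7% for NEFL, 61.4% for EDNRB, 50.9% for NEFM, 5.25% for NTS and 0.676% for ERBB4. In E8 the shares at day 4 were 77.1% for PTPRZ1, 51.9% for NEFL, 42.5% for NEFM, 24.0% for EDNRB and 5.82% for NTS. In mTeSR they were 68.3% for PTPRZ1, 34.95% for NEFL, 26.3% for NEFM, 21.7% for EDNRB, 2.35% for NTS and 0.195% for ERBB4. NTS and ERBB4 were therefore the late genes in N2B27 and mTeSR, with most of their final level added after day 4, and the shares use the day 8 means that chose the members and carry no test.

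**Figure D2:**
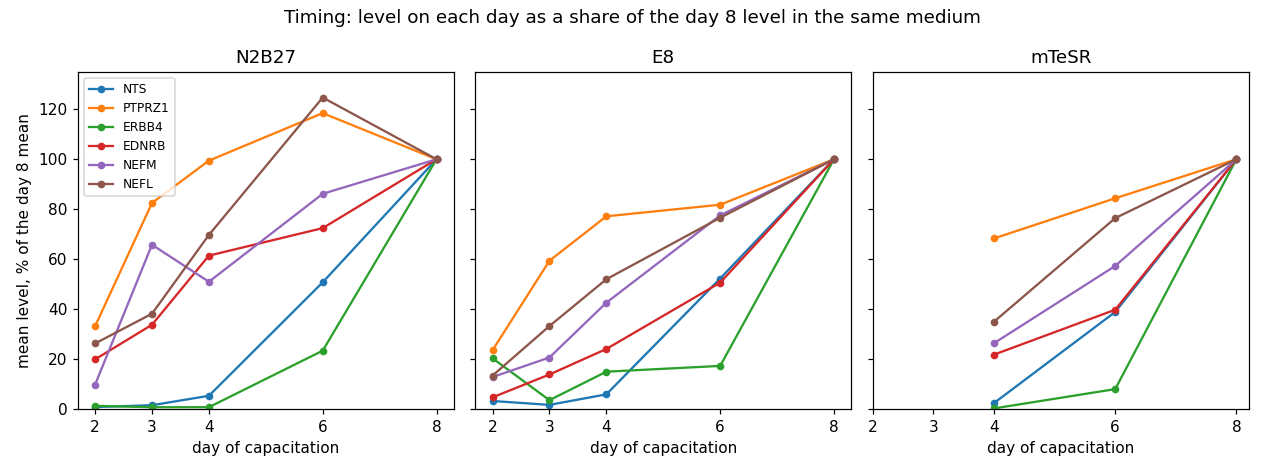
Mean level on each sampled day as a percentage of the day 8 mean in the same medium (vertical axis) against the day of capacitation, 1 line per gene and 1 panel per medium, with 2 libraries behind each mean. PTPRZ1 lies above the other genes at day 4 in each panel and NTS and ERBB4 lie lowest in N2B27 and mTeSR, while ERBB4 in E8 was at or under 3 counts until day 6.

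Between consecutive days the members called were all rises. In N2B27 2 of 6 were called from day 2 to day 3 (PTPRZ1 and NEFM), against 2.02% of all genes called higher, and 1 of 6 from day 3 to day 4 (NTS), against 0.798%. From day 4 to day 6 in N2B27 1 of the 5 tested was called (NTS), against 3.08%. In E8 3 of 6 were called from day 2 to day 3 (PTPRZ1, EDNRB and NEFL), against 4.32%, then 1 of 6 from day 3 to day 4 (NTS), against 0.69%, and 2 of 6 from day 4 to day 6 (NTS and EDNRB), against 1.97%. In mTeSR 4 of 6 were called from day 4 to day 6 (NTS, ERBB4, NEFM and NEFL), against 2.29%. These genes were picked for their rise to day 8, so that steps upward are partly set by the choice.

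Against N2B27, 4 of the 6 genes were called in each of the other media by day 6, ERBB4 among them as a description. Between E8 and N2B27, 1 of 6 was called at day 2 (NEFM higher in E8), against 4.55% of all genes in either direction, and 2 of 6 at day 3 (EDNRB higher, NTS lower), against 1.68%. At day 4 it was 3 of 6 (EDNRB and NEFM higher, NTS lower), against 2.49%, and at day 6 it was 4 of 6 (EDNRB and NEFM higher, NTS and ERBB4 lower), against 5.28%. Between mTeSR and N2B27, 2 of 6 were called at day 4 (NEFM higher, NTS lower), against 1.58%, and 4 of 6 at day 6 (NEFM and NEFL higher, NTS and ERBB4 lower), against 2.62%. Between mTeSR and E8, 1 of 6 was called at day 4 (EDNRB lower), against 0.084%, and 2 of 6 at day 6 (ERBB4 higher, EDNRB lower), against 1.1%. These genes were picked in part for differences between media at day 8, so that differences at earlier days are partly set by the choice. The day 6 differences of ERBB4 from N2B27 are a description, and nothing is read from their place in these counts. Comparisons with N2B27 share its libraries, as those with E8 share the E8 libraries.

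NTS was lower than in N2B27 in both other media. Its log2 difference from N2B27 was -1.66 ± 0.49 in E8 at day 3 (adjusted p = 0.0385), -1.67 ± 0.28 at day 4 (adjusted p = 0.00019) and -1.77 ± 0.17 at day 6 (adjusted p = 5.42e-09). In mTeSR the difference from N2B27 was -2.94 ± 0.35 at day 4 (adjusted p = 1.92e-06) and -2.20 ± 0.17 at day 6 (adjusted p = 9.68e-10). Between mTeSR and E8 it was not called at day 4 (-1.28, 95% interval -2.14 to -0.41) or at day 6 (-0.42, -0.78 to -0.06). The day 3 call was lost with DESeq2 (adjusted p = 0.0688), without a filter (0.0783), when only the compared libraries were fitted (0.579) and when any of its 4 libraries was left out, and the calls at days 4 and 6 held under every alternative.

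**Figure D3:**
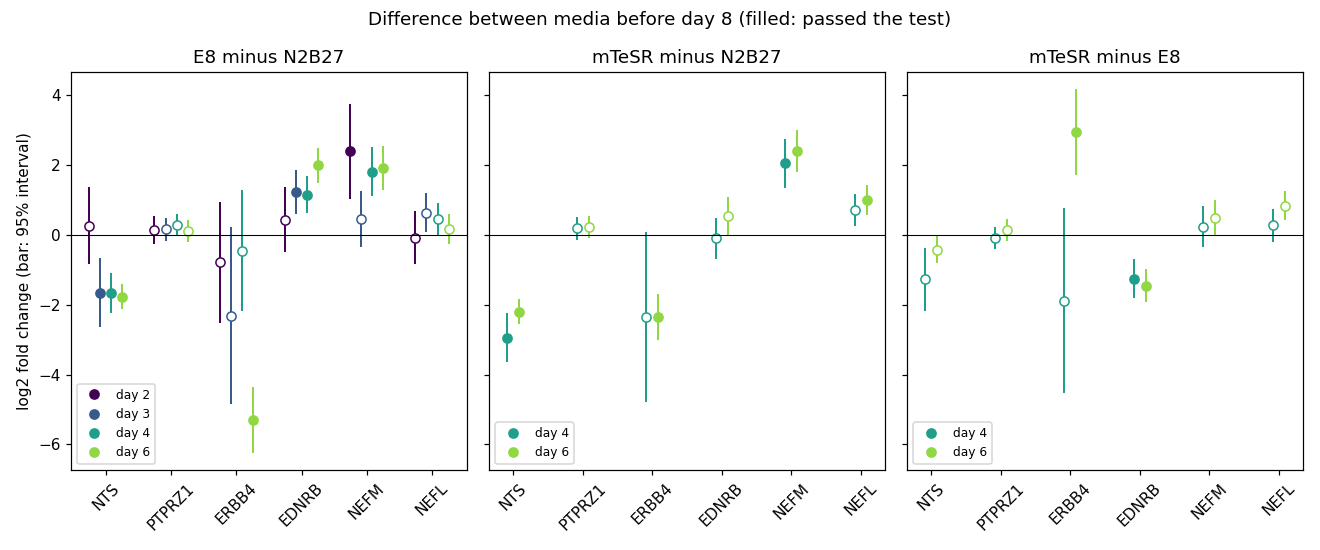
Log2 fold changes between media at days 2 to 6 for the 6 genes on the vertical axis, 1 panel per pair of media, with 95% intervals from the edgeR quasi-likelihood fit (2 libraries per group) and filled circles for calls. NTS and ERBB4 lie below 0 against N2B27 where they were called, EDNRB and NEFM lie above 0 in E8, and PTPRZ1 lies close to 0 at every day. The day 6 values of ERBB4 against N2B27 are a description.

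The change from day 4 to day 6 was compared between media directly. None of the 6 genes was called by the edgeR quasi-likelihood test for E8 against N2B27 (2 at an unadjusted p under 0.05 and 1 with DESeq2, background 0.18%), for mTeSR against N2B27 (0 unadjusted and 0 with DESeq2, 0.168%) or for mTeSR against E8 (1 unadjusted and 0 with DESeq2, 0.09%). For ERBB4 the contrasts with N2B27 hold its step from day 4 to day 6 in that medium, which was known when it was chosen, so that its difference of -4.84 between E8 and N2B27 on the log2 scale is a description and nothing is read from its place in these counts. It was 1 of the 2 genes at an unadjusted p under 0.05 there, and the gene called with DESeq2. For NTS the rise in E8 differed from that in N2B27 by -0.11 (95% interval -0.82 to 0.60), which leaves room for a rise up to 0.82 smaller in E8 on the log2 scale.

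At day 4, 1 of the 6 genes was called for a supplement added to N2B27. NTS held 11.7 and 13.8 CPM in N2B27 of Ex2, 6.42 and 6.15 CPM with XAV, and 8.89 and 8.73 CPM with FAX, so that both supplemented groups lay below N2B27. With XAV the difference was -1.02 ± 0.24 (adjusted p = 0.0213), the only call among 6 genes against a background of 0.57%. It lay at the fold threshold and was lost when any of the 4 libraries was left out (-1.13 to -0.89, adjusted p 0.058 to 0.355) and without a filter (-0.9998). With FAX no gene was called (edgeR quasi-likelihood, 3 at an unadjusted p under 0.05 and 0 with DESeq2, background 0.336%), and NTS differed by -0.53 (95% interval -0.9996 to -0.07). Between FAX and XAV no gene was called either (0 unadjusted and 0 with DESeq2, background 0.012%), and NTS differed by 0.48 (-0.02 to 0.99).

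The other 5 genes gave wider or smaller differences. NEFL held 10.1 and 11.4 CPM in N2B27 of Ex2, 16.2 and 18.9 CPM with XAV and 21.3 and 18.4 CPM with FAX, and its differences from N2B27 of 0.70 (0.21 to 1.20) and 0.88 (0.38 to 1.38) were not called (adjusted p = 0.254 and 0.117). PTPRZ1 held 73.8 and 62.1 CPM in N2B27, 71.2 and 75.2 CPM with XAV and 98.3 and 82.8 CPM with FAX. EDNRB and NEFM lay between 4.98 and 8.63 CPM in all 6 libraries of these groups. ERBB4 stayed at or under 3 counts in all 6, as in N2B27 of Ex1 at day 4 apart from 1 library with 6 counts. ERBB4 was thus not above the floor at day 4 with either supplement.

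N2B27 at day 4, the capacitation condition repeated in both experiments, showed how far a repeat moved these genes. None was called between Ex2 and Ex1 by the edgeR quasi-likelihood test (1 at an unadjusted p under 0.05 and 0 with DESeq2, background 1.01%). The unadjusted one was NEFM, with 1.73 and 2.86 CPM in Ex1 and 5.97 and 4.98 CPM in Ex2, a difference of 1.25 ± 0.37 (adjusted p = 0.0537). NTS differed by 0.35 (95% interval -0.09 to 0.78) and PTPRZ1 by -0.23 (-0.53 to 0.07). Between naive cells on Geltrex and on serum coating in Ex1 none was called (1 unadjusted and 1 with DESeq2, namely NEFL, background 0.048%).

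**Figure D4:**
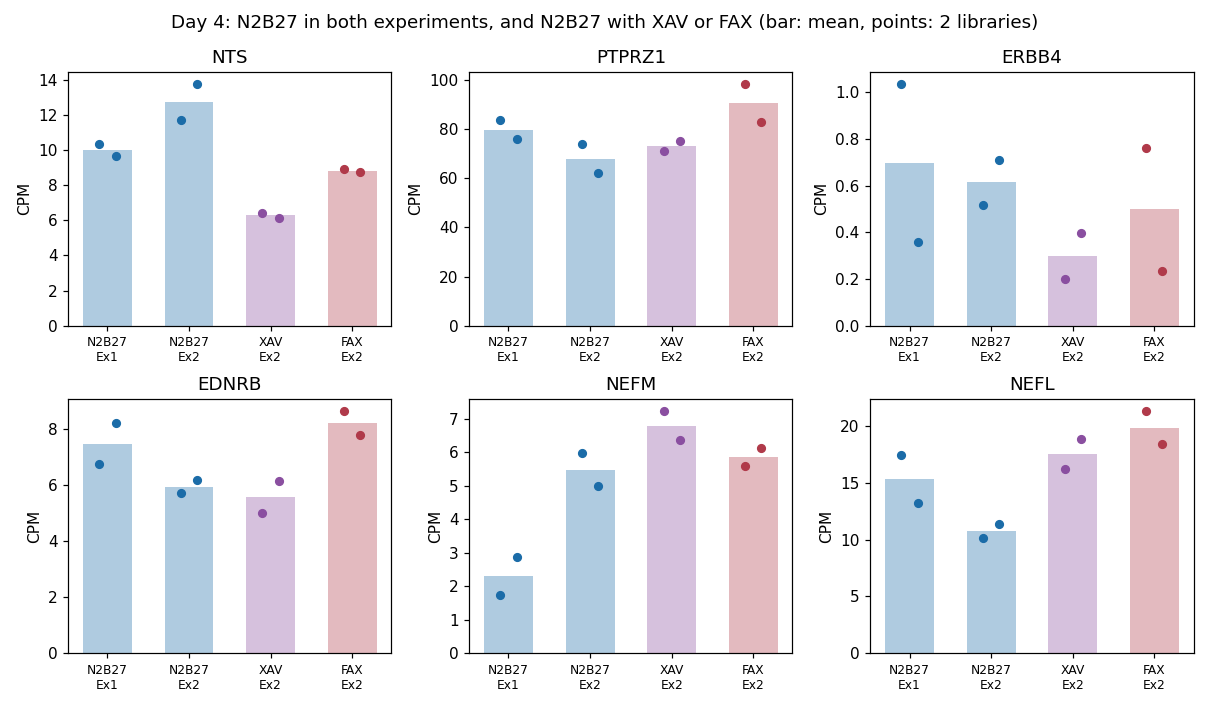
Levels in CPM (vertical axis, from 0) of the 6 genes at day 4 in N2B27 of both experiments and in N2B27 with XAV or FAX, with bars at the mean of 2 libraries and a point per library. NTS with XAV (6.15 and 6.42) lies below N2B27 of the same experiment (11.7 and 13.8), and NEFM in N2B27 lies higher in Ex2 than in Ex1.

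The genes most like each member over the 16 combinations of medium and day were sought among 11263 genes that reached 10 CPM, by Pearson correlation of mean log2(CPM + 1), as a description. NTS was followed most closely by CYP26A1, an enzyme that degrades retinoic acid (0.97), CLIP2 and AES. PTPRZ1 was followed by the transcription factor SOX11 (0.99), the cyclin CCND2 and PHLDA1, and ERBB4 by SOX17 (0.99) and LHX1 (0.99), transcription factors of endoderm and mesendoderm, and RHOBTB3. EDNRB was followed by CLEC14A (0.96), SMPDL3B and OCIAD2, NEFM by THBS2 (0.97), a matrix protein, RTL6 and QSOX1, and NEFL by TRIB2 (0.97), PLXNA1 and PXDN. Among the members themselves NEFM and NEFL were most alike (0.93), followed by EDNRB with NEFM (0.85), EDNRB with NEFL (0.84) and NTS with ERBB4 (0.83), and PTPRZ1 and ERBB4 were least alike (0.29). The levels share libraries and the rise from naive cells, and with ranks in place of values 0 of the 3 genes of PTPRZ1 and 0 of those of ERBB4 remained among the top 3. For the other members only CLIP2 remained for NTS, SMPDL3B for EDNRB, PLXNA1 for NEFL, and THBS2 and RTL6 for NEFM.

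Genes that act with the members were followed through 5 lists. At day 8 against naive cells, 23 of 37 tested genes of these lists were called in N2B27 (19 higher), 26 of 37 in E8 (20 higher) and 23 of 37 in mTeSR (20 higher), where 23.9%, 27.5% and 25.1% of all genes were called in either direction and 16.9%, 18.2% and 16.9% were called higher. Their median log2 fold changes for N2B27, E8 and mTeSR were 1.499, 1.07 and 1.56, against -0.03, 0.00243 and -0.02 over all genes. The lists are described by these counts and nothing particular to them is read from it.

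Of the receptors of neurotensin, NTSR1 and NTSR2 did not pass the filter, with at most 1 and 3 counts in any library. The sorting receptor SORT1 was at 48.6 CPM in naive cells and 51.3 to 62.1 CPM at day 8 without a call, and its relative SORL1, which also binds neurotensin, rose from 20.3 CPM to 132, 118 and 143 CPM in N2B27, E8 and mTeSR (log2 fold changes 2.56 to 2.83). Of the enzymes that process peptide hormones, carboxypeptidase E (CPE) rose from 1.03 to 12.8, 6.06 and 7.97 CPM, and PAM rose from 0.139 to 2.72, 7.41 and 14.3 CPM. The convertase PCSK1 was lower in E8 than in N2B27 at day 8 (0.514 against 3.73 CPM, log2 fold change -2.79) and highest in mTeSR (7.83 CPM). In all, N2B27 had 4 of the 10 tested genes of this list higher and 1 lower, E8 had 3 and 2, and mTeSR 5 and 1.

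Of the ligands and partners of PTPRZ1, pleiotrophin (PTN) rose from 0.0667 CPM to 8.45, 9.41 and 9.48 CPM in N2B27, E8 and mTeSR, while midkine (MDK), the other ligand, was at 80.4 CPM in naive cells and lower in E8 (31.8 CPM, log2 fold change -1.35). PTPRG, the closest relative of PTPRZ1, rose from 5.66 to 74.7, 47.7 and 68.9 CPM. Tenascin C (TNC), a matrix protein, rose from 0.675 to 28.1, 14.5 and 7.03 CPM and was lower in mTeSR than in N2B27 (log2 fold change -1.999). The adhesion protein NRCAM was called in N2B27 alone among the comparisons with naive cells (0.447 to 4.19 CPM), and was lower in E8 and in mTeSR than in N2B27 (-2.47 and -2.56). Of 8 tested, 5 were higher in N2B27, 4 in E8, where 1 was lower, and 4 in mTeSR.

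NRG1, a neuregulin and ligand of ERBB receptors, fell from 54.4 CPM in naive cells to 4.79, 4.003 and 6.74 CPM (log2 fold changes -3.51, -3.80 and -3.02), while of the EGFR ligands EGF was at 0 counts in all naive libraries and at 5.58, 1.40 and 3.16 CPM at day 8, and TGFA rose from 0.123 to 12.5, 7.79 and 11.4 CPM. HBEGF, which binds EGFR and ERBB4, rose from 2.23 to 10.2, 10.8 and 8.76 CPM. AREG, another EGFR ligand, rose from 0.133 to 2.69, 2.69 and 2.89 CPM. NRG3 was highest in E8 (3.83 CPM) and under the floor in N2B27 (0.419 CPM). The sister receptors ERBB2 and ERBB3 were not called between day 8 and naive cells (25.2 and 25.6 CPM in naive cells). EGFR rose in each medium, from 0.778 to 4.41, 10.5 and 6.59 CPM, with the highest level in E8, in which ERBB4 was lowest. Of 10 tested, 6 were higher in N2B27 and 7 in E8 and in mTeSR, with 1 lower in each.

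The endothelin ligand EDN1 rose from 0.123 CPM to 7.56, 25.4 and 3.70 CPM in N2B27, E8 and mTeSR, and like EDNRB it was higher in E8 than in N2B27 (1.75) and lower in mTeSR than in E8 (-2.77). EDN3, the ligand that acts on EDNRB in neural crest, was called in E8 alone against naive cells (0.199 to 2.03 CPM), and the processing enzyme ECE1 was not called. EDN2, EDNRA and ECE2 did not pass the filter. Of 3 tested, 1 was higher in N2B27, 2 in E8 and 1 in mTeSR.

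Among other intermediate filament genes, some rose and some fell. The heavy neurofilament subunit NEFH fell from 147 CPM in naive cells to 35.3, 21.1 and 28.3 CPM (log2 fold changes -2.06, -2.80 and -2.39). Internexin alpha (INA), which assembles with neurofilaments, fell from 70.05 to 24.6 CPM in N2B27 and 24.9 CPM in E8 and was at 38.1 CPM in mTeSR without a call. Vimentin (VIM) rose from 0.0899 CPM to 83.2, 74.5 and 67.4 CPM and nestin (NES), a filament of neural progenitors and other early cells, from 44.97 to 171, 302 and 177 CPM. Peripherin (PRPH), a filament of peripheral neurons, rose from 2.15 CPM to 5.83, 4.07 and 7.01 CPM. Of 6 tested, N2B27 had 3 higher and 2 lower, E8 had 4 and 2, and mTeSR 3 and 1.

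Several defining markers of neural cells were at or near the floor. SOX1, the earliest marker of the neural plate, and the neurogenic factor NEUROG2 never exceeded 3 counts in any library, the astrocyte filament GFAP never exceeded 5, and none of them passed the filter. PAX6 was at 0.568 CPM in naive cells and rose to 1.98, 1.85 and 2.06 CPM at day 8 (log2 fold changes 1.72, 1.63 and 1.78), and the neural crest factor SOX10 was at 1.59 CPM in naive cells and 1.80 to 2.52 CPM at day 8 without a call. PAX6 was higher at earlier times, with up to 56 counts or 13.2 CPM in a library of FAX at day 4, and ZIC1 reached 83 counts or 16.6 CPM in a library of N2B27 at day 3. The summed level of the 12 neural progenitor markers was 12.8 to 17.7 CPM in naive libraries, 28.2 to 32.3 CPM in N2B27 at day 3, 19.1 to 23.3 CPM in E8 at day 3, and 11.9 to 13.3 CPM at day 8 over the media. Its part in the rises from day 2 to day 4 was not tested. The summed levels of the other neural lists were higher at day 8 than in naive libraries. The 15 neuron markers summed to 200.2 to 232 CPM in naive libraries and 432 to 539 CPM at day 8 over the media, the 10 neural crest markers to 35.03 to 47.7 CPM and 82.2 to 162 CPM, and the 8 glia markers to 17.9 to 25.5 CPM and 53.2 to 78.8 CPM. Most of the rise of the neuron marker sum was that of SYT1 (26.4 to 188, 254 and 222 CPM in N2B27, E8 and mTeSR). The part of these lists in the levels of the 6 genes was not tested.

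Over the 4 lists of neural markers, 18 of 28 tested genes were called in N2B27 (17 higher), 18 of 28 in E8 (16 higher) and 19 of 28 in mTeSR (17 higher), with median log2 fold changes of 1.89, 1.28 and 1.63. Over all genes 23.9%, 27.5% and 25.1% were called in either direction and 16.9%, 18.2% and 16.9% were called higher. Of 12 neuron markers tested 7, 8 and 7 were higher and 0 lower, among them GAP43, a growth cone protein (3.94 to 24.7, 33.1 and 39.1 CPM), the synaptic vesicle protein SYT1 (26.4 to 188, 254 and 222 CPM), and STMN2 and DCX, which were at 4.58 and 5.20 CPM or less at day 8. The neuronal tubulin TUBB3 was not called (148 CPM in naive cells and 156 to 167 CPM at day 8). Of 8 neural crest markers tested 6 were higher in N2B27, 3 in E8 and 5 in mTeSR, among them FOXD3 (3.41 to 23.0, 49.8 and 31.5 CPM), MSX1 (1.83 to 21.3, 4.63 and 5.48 CPM), MSX2 (3.61 to 37.99, 9.56 and 13.3 CPM) and SNAI2 (0.0740 to 8.40 CPM in N2B27 and 0.693 CPM in mTeSR). Of 5 neural progenitor markers tested, 2 were higher and 1 lower in N2B27 and 3 were higher and 2 lower in E8 and in mTeSR, with FABP7 lower in each medium and RAX at 0 CPM in naive cells and at 0.0899, 0.445 and 2.49 CPM at day 8. In E8 RAX was among the genes called higher, at a mean level under the floor of detection. Of 3 glia markers tested, SOX9 and MBP were higher in each medium.

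Mesendoderm markers moved in the same order of media as ERBB4. At day 8 against naive cells 8 of 9 tested were higher in N2B27, 7 in E8, where 1 was lower, and 8 in mTeSR, against 16.9%, 18.2% and 16.9% of all genes called higher. Between media 9 of 9 were lower in E8 than in N2B27 (background 7.29%), 2 of 9 were lower in mTeSR than in N2B27 (background 3.8%), and 9 of 9 were higher in mTeSR than in E8 (background 5.31%). The summed level of the 10 markers was 9.19 to 34.2 CPM in naive libraries, 472 to 590.2 CPM (N2B27), 277 to 313 CPM (mTeSR) and 61.0 to 61.2 CPM (E8) at day 8, and at day 6 it was 273 to 296 CPM, 143 to 159 CPM and 55.6 to 60.6 CPM. SOX17 (60.5, 5.49 and 35.4 CPM in N2B27, E8 and mTeSR) and FOXA2 (35.7, 2.78 and 21.0 CPM), both factors of definitive endoderm, LHX1 (134, 10.5 and 49.5 CPM) and the primitive streak factor TBXT (62.7, 15.4 and 35.2 CPM) were among them. HHEX was the marker lower in E8 and not higher in any medium, MESP1 did not pass the filter, and the part of mesendoderm cells in the level of ERBB4 was not tested.

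**Figure D5:**
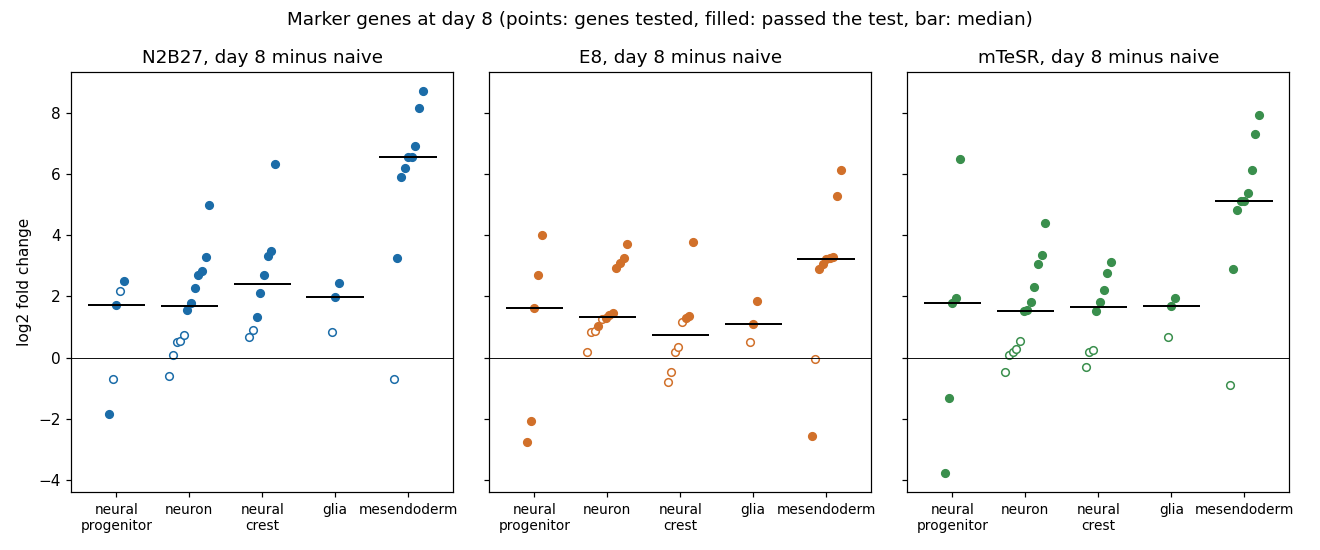
Log2 fold changes of marker genes between day 8 and naive cells (vertical axis), 1 point per tested gene, filled where called, with a bar at the median of each list and 1 panel per medium (2 libraries at day 8 against 6 naive libraries). Mesendoderm markers have the highest medians (6.55 in N2B27, 3.24 in E8 and 5.12 in mTeSR), while the medians of the 4 neural lists lie between 0.75 and 2.39.

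Markers of other cell types moved less uniformly. Of 5 amnion and trophectoderm markers tested, N2B27 had 4 higher, E8 had 2 higher and 2 lower, and mTeSR had 1 of each, with GATA3 at 36.5, 12.5 and 5.08 CPM in these media. CDX2 rose from 2.53 to 16.9 CPM in N2B27 and fell to 0.0932 CPM in E8, TFAP2A was called in N2B27 (1.63 to 4.302 CPM), and GABRP, at 0 CPM in naive cells, was at 2.15, 1.83 and 0.820 CPM. Of 7 general pluripotency markers 1, 2 and 1 were higher and 0 lower, with POU5F1 at 403 CPM in naive cells and 316 to 414 CPM at day 8. LIN28A, an RNA-binding protein of pluripotent cells, rose from 263 to 571, 573 and 687 CPM and TDGF1, a NODAL coreceptor, was called in E8 (154 to 365 CPM). Lower naive markers were 6 of 6 in N2B27 and mTeSR and 5 of 6 in E8, among them DNMT3L (323 to 52.8, 32.3 and 41.2 CPM), TFCP2L1 (248 to 72.2, 65.5 and 51.3 CPM) and SUSD2 (94.9 to 36.6, 11.8 and 16.9 CPM), while KLF4 (111 CPM in naive cells) was at 61.1 CPM in E8 without a call and fell to 13.9 and 19.2 CPM in N2B27 and mTeSR. Over all genes 7.03%, 9.24% and 8.2% were called lower at day 8 in N2B27, E8 and mTeSR, and 16.9%, 18.2% and 16.9% higher. That 0 of 7 general pluripotency markers were lower is near these shares, and nothing is read from it. At day 8 the 6 genes were thus seen beside lower naive markers.

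Positions on GRCh38 are those of GENCODE release 44. NTS lies on chromosome 12 (85874295 to 85882992, plus strand), PTPRZ1 on chromosome 7 (121873089 to 122062036, plus strand), ERBB4 on chromosome 2 (211375717 to 212538841, minus strand) and EDNRB on chromosome 13 (77895481 to 77975529, minus strand). NEFM (24913758 to 24919098, plus strand) and NEFL (24950955 to 24956721, minus strand) lie next to each other on chromosome 8. Exons of long noncoding RNAs overlap those of EDNRB, NEFM and NEFL, but at least 4381 bases from the 3′ end of these genes, and no annotated exon of another gene overlaps those of NTS, PTPRZ1 or ERBB4.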

How the data were processed

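RNA of 38 libraries was sequenced from the 3′ end of transcripts (QuantSeq). Per the labels, the authors checked reads with FastQC (0.11.9), aligned them with STAR (2.7.10a) to hg38 and quantified genes with Salmon (1.9.0). The deposited values are whole-number counts per gene, not normalized. Reads fall near the 3′ end, so that levels depend on 3′ end annotation.

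From these counts, genes were kept by filterByExpr (16674 of 57133, holding 99.6% of counts), scaled by TMM and tested with the edgeR quasi-likelihood test (edgeR 4.0.16, limma 3.58.1, R 4.3.3) over all libraries and 19 groups, or for day 8 against naive cells over 16 levels of medium and day with the 6 naive libraries pooled. A call needed a Benjamini-Hochberg adjusted p under 0.05 over all genes and an absolute log2 fold change over 1. The scripts were tested on simulated data. Day 8 contrasts of the 5 genes chosen by them were not tested.

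Members and lists were chosen with earlier results of these data known. Named genes were the members, the 3 genes most correlated with each, and list genes called at day 8 with the largest fold changes, up to 4 per list, plus SOX1, PAX6, SOX10, NEUROG2 and GFAP. NTSR1, NTSR2, SORT1, MDK, EGFR, ERBB2, ERBB3, NRG1, HBEGF, EDN2, EDNRA, ECE1, ECE2, INA, TUBB3, HHEX, MESP1 and POU5F1 lay outside this rule and were named after their values were seen. A gene that the rule names is not reported here. Alternatives were RLE scaling, library totals, 2 other filters, DESeq2 (1.42.0), the compared libraries alone, a replicate block, leaving out each library, other floors, rank correlation and other naive libraries. Libraries correlated within groups at 0.972 to 0.990.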

Additional observations from a re-analysis of the deposited data

Results flagged for a closer look

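In the 6 naive libraries, 3 of the genes each had a library, a different one for each gene, apart from the others by Dixon's ratio of the gap to the whole range, which passed its 95% critical value. For NTS the highest library held 0.681 CPM, from 2 counts, and the next 0.180 CPM (ratio 0.736). For PTPRZ1 the highest held 0.221 CPM, from 1 count, and the other 5 held 0 (ratio 1), a ratio that any single read among libraries at 0 gives, so that nothing is read from it. For NEFM the lowest held 0.276 CPM and the next 0.681 CPM (ratio 0.654). All of these levels rest on 4 counts or fewer. The critical value is set for about 1 of 20 groups of continuous values, a rate that need not hold for low tied counts, so that nothing is read from these cases. Of the 12 groups set for examination, EDNRB in naive cells had 0 counts throughout and gave no ratio.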

How the results depend on the processing

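Of 152 member values fitted, 38 were called. The 152 values include the change of ERBB4 from day 4 to day 6 against N2B27, which the report gives as a description and which makes up the counts of 1 for that change between E8 and N2B27 below. They also include the day 6 differences of ERBB4 from N2B27, likewise a description. Of the 38 calls, 23 were called under every alternative and 15 were lost under at least 1, of which 4 only by leaving out a library. By gene, 7 of 11 calls held for NTS, 2 of 2 for PTPRZ1, 3 of 4 for ERBB4, 2 of 7 for EDNRB, 4 of 7 for NEFM and 5 of 7 for NEFL. Of 1762 alternative values, 48 lost and 13 gained a call, and 56 that were never called changed sign.

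With only the compared libraries fitted, the count of members called was 1 for N2B27 day 3 against day 2, 0 for day 4 against day 3, 1 for E8 day 3 against day 2, 0 for E8 day 4 against day 3, 0 for E8 against N2B27 at day 2 and 0 at day 3, 0 for mTeSR against E8 at day 4, 1 for N2B27 at day 4 between experiments and 1 for the change from day 4 to day 6 between E8 and N2B27. This fit has fewer samples. Without a filter it was 0 for E8 day 4 against day 3, 1 for E8 against N2B27 at day 3, 0 for XAV, 1 for naive coatings and 1 for the change between E8 and N2B27. With DESeq2 it was 0, 1, 1 and 1 for the same comparisons except XAV. Onset moved to day 2 for NTS in E8 (floor of 1 count), and to day 6 for NTS in mTeSR and day 3 for NEFM in E8 (floor of 5 counts). The cause was not tested.

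Leaving out a library gave 1 to 2 members for N2B27 day 3 against day 2 (lowest without replicate 1 of day 3), 1 to 2 for day 4 against day 3 and 1 to 2 for day 6 against day 4. It gave 1 to 3 for E8 day 3 against day 2 (lowest without replicate 1 of day 2), 0 to 1 for day 4 against day 3 and 1 to 2 for day 6 against day 4. Between E8 and N2B27 it gave 0 to 1 at day 2 and 0 to 1 at day 3, between mTeSR and E8 0 to 1 at day 4 and 1 to 2 at day 6, for XAV 0 to 0 and for naive coatings 0 to 1. The count of 0 at day 4 between mTeSR and E8 came without replicate 2 of E8 or either replicate of mTeSR, and that of 0 at day 3 between E8 and N2B27 without replicate 1 of N2B27 or replicate 2 of E8. NEFL gained a call in N2B27 at day 4 against day 3 and in E8 against N2B27 at day 3 without replicate 2 of N2B27 at day 3 (1.503 and 1.296), and in N2B27 at day 6 against day 4 without replicate 1 of day 4 (1.05). In E8 at day 4 against day 3, NEFM gained one without replicate 2 of day 3 (1.49) and EDNRB without replicate 1 of day 4 (1.11).

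Deviations of same-numbered libraries correlated at -0.40 to 0.30 in Ex1 (median 0.00448, 12 of 105 group pairs over 0.1) and at -0.05 to 0.05 in Ex2. Such correlations cannot show how libraries were handled, so that pairing by replicate number was not decided. With a replicate block no member call was lost, and the count of members stayed at 4 for E8 against N2B27 at day 6. Over all genes, counts of calls moved by more than 1.5 times in 18 of 30 comparisons with the compared libraries alone, 15 with DESeq2, 7 without a filter, 2 with the replicate block and 1 with library totals. With library totals the share of calls that were higher moved from 57.1% to 70.8% for E8 day 3 against day 2 (median of all genes 0.17), from 62.1% to 43.5% for E8 against N2B27 at day 2 (median -0.15), from 73.5% to 84.2% for N2B27 day 4 against day 3, from 38.7% to 27.4% for N2B27 at day 4 between experiments and from 50% to 33.3% for naive coatings. Levels of 3 counts or fewer, as for ERBB4 in E8 until day 6 and in mTeSR at day 4, limit what could be detected at this depth.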
